A study of Homo sapiens with 12 samples.

Results

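A set of 7 genes outside lipid synthesis was followed across U2OS cells given DMSO, TH10785, PNKP1i or both compounds: PTPRR, LINC02615, PTP4A3, KISS1, MAB21L4, CLIC3 and SECTM1. The genes were picked from measured values of these same libraries. PTPRR, LINC02615, PTP4A3 and KISS1 were among the largest rises with TH10785, and MAB21L4, SECTM1 and CLIC3 had interaction terms near the bottom of the whole table. The interaction term is the log2 change with both compounds minus the changes with each one alone. All 7 passed the filter on low counts, out of 17290 genes tested and 58735 in the table. The set did not move as one: of the 4 genes that rose with TH10785, KISS1 and PTPRR stayed high when PNKP1i was added, while LINC02615 and PTP4A3 had libraries overlapping those of DMSO. The other 3 did not pass the test with TH10785 and had their lowest levels with both compounds.

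U2OS is a cell line from a human osteosarcoma. It was treated for 24 h in 4 groups of 3 libraries: DMSO, the solvent alone; 10 µM TH10785; 10 µM PNKP1i; and 10 µM of each compound together, called the combination below. TH10785 activates the glycosylase OGG1, which cuts oxidised guanine out of DNA (the series record writes the name TH10587, and the sample labels' spelling is kept). PNKP1i is the second compound, and no source used here gives its structure. Every group is the same single line, and no label says that the replicates were separate cultures, so p-values measure only how far these libraries spread, and that spread may be technical.

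The set has no common pathway. PTPRR and PTP4A3 are protein phosphatases: the first is a receptor-type tyrosine phosphatase that docks on and dephosphorylates MAP kinases, and the second, also known as PRL-3, is a small membrane-anchored phosphatase that binds CNNM magnesium transport proteins. KISS1 encodes the precursor of the kisspeptins, secreted peptides that act on the receptor KISS1R and were first known for suppressing metastasis. CLIC3 is a member of the chloride intracellular channel family, SECTM1 is a secreted and membrane-bound ligand of CD7 that interferon gamma induces, MAB21L4 is a Mab-21 domain protein of stratified epithelium, and LINC02615 is a long non-coding RNA.

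Depth was 16225339 to 21546369 counts per library. Values are CPM (reads scaled to a common library total, with TMM factors), so 3 counts were worth 0.136 to 0.184 CPM. Of the mesenchymal markers, 6 of 7 were over 1 CPM in every group and TWIST1 was at 0 throughout; blood markers summed to at most 0.723 CPM, with CD3E and LYZ at 0. Epithelial markers, 6 of 10 of them over 1 CPM in every group, summed to 580–648 CPM with DMSO, 802–1200 with TH10785, 496–681 with PNKP1i and 307–448 with the combination, most of it from SFN, while the epithelial regulator GRHL2 was at or near 0. The mesenchymal sum was 3240–3840 CPM with DMSO and 2000–2580 with the combination. These are bulk libraries, in which fewer cells of a kind and less RNA per cell cannot be told apart.

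The 250 bases upstream of the start are shown for a gene that kept its rise and for the gene with the lowest interaction term of the set, because both hold a known promoter motif close to the start. The sequences are RefSeq's on GRCh38.p14, read 5′ to 3′ on the minus strand, which is the strand of both genes. Capitals mark a TATA box of KISS1, at chr1:204196492-204196741, and an AP-1 site of MAB21L4, at chr2:240896157-240896406. The MAB21L4 window lies inside the span of that gene in the GENCODE 29 annotation (240886048–240896889) and overlaps no annotated exon.
KISS1: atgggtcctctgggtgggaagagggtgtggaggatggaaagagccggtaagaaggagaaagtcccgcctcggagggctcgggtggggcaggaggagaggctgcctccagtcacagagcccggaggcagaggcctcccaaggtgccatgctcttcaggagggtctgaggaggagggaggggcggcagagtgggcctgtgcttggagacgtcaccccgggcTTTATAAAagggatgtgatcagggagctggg
MAB21L4: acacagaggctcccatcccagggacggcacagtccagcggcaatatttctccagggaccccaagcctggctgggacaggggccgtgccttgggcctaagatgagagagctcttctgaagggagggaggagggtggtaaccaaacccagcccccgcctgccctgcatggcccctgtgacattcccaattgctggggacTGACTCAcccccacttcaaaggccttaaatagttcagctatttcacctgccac
Both strands were searched for each motif. TATAAA lay 29 bases before the KISS1 start, with its reverse complement TTTATA overlapping it at 31 bases, and 10.7% of 35116 promoters of the same length held such a match. TGANTCA lay 53 bases before the MAB21L4 start and was in 6.57% of promoters. RefSeq starts were found for 6 of the 7 genes. The sterol regulatory element TCACNCCAC, present in 0.883% of promoters, was matched in 1 of the 6, at a second start of MAB21L4. GC boxes (GGGCGG) were matched in the windows of KISS1, CLIC3 and SECTM1, against 42.6% of all promoters. The CLIC3 and SECTM1 windows overlap an annotated exon by 235 and 232 of their 250 bases, so they are mostly exon sequence. The other motifs searched had no match in these windows: the antioxidant response element TGACNNNGC (10.9% of promoters), the interferon-stimulated response element by its usual consensus (3.02%), the amino acid response element TGATGNAAN (3.13%), the cAMP response element TGACGTCA (1.65%) and the E-box CACGTG (6.34%). A match describes letters in these windows and not a bound site.

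**Figure D1:**
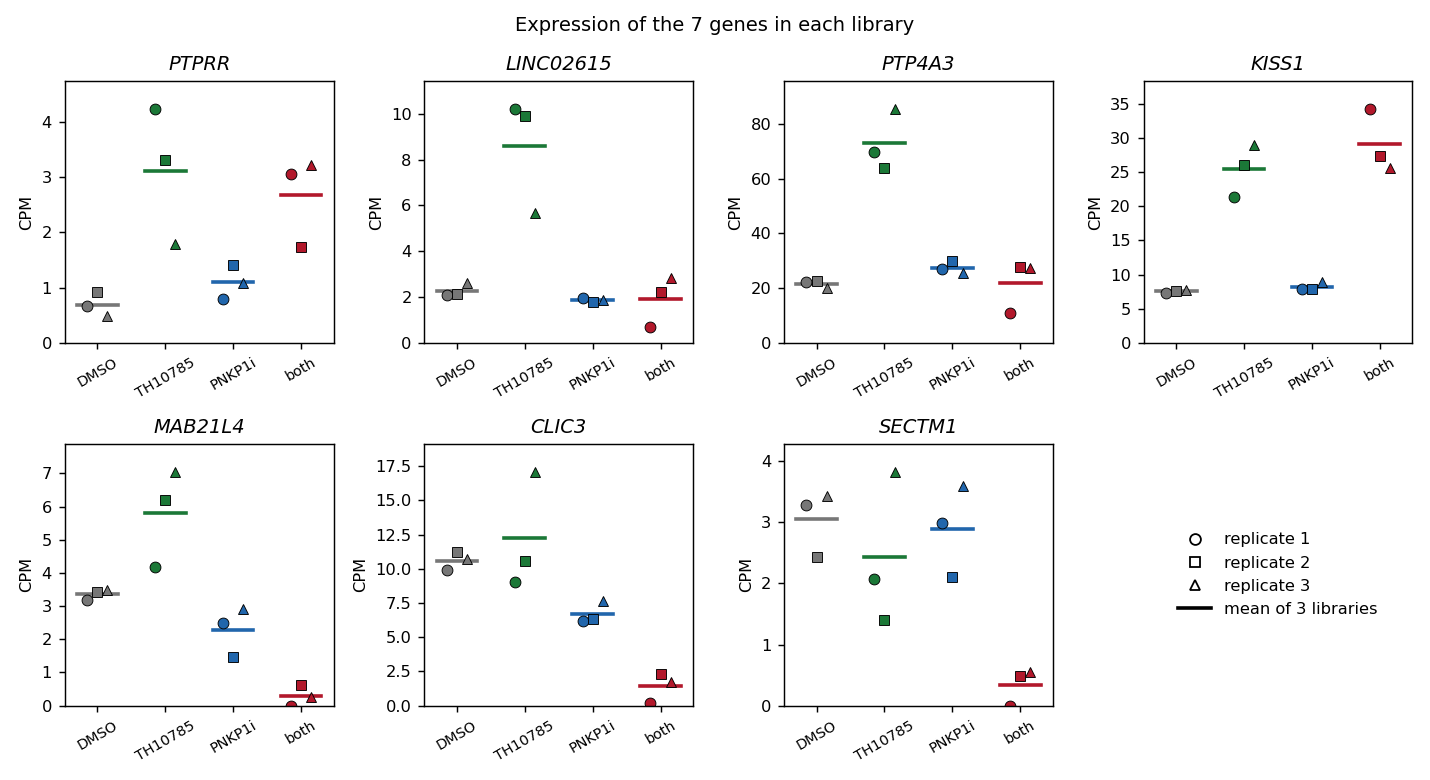
CPM of each of the 7 genes (1 panel each, vertical axis from 0) in the 12 libraries; symbols are replicates, bars the mean of 3 libraries, and "both" is the combination. KISS1 and PTPRR were high with TH10785 and with both, LINC02615 and PTP4A3 were high with TH10785 alone, and MAB21L4, CLIC3 and SECTM1 were lowest with both.

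KISS1 rose with TH10785, and its rise was still there with both compounds. Its gene lies on the minus strand of chromosome 1 (204190341–204196486, GRCh38). The DMSO libraries held 7.36, 7.57 and 7.71 CPM, the PNKP1i libraries 7.89, 7.91 and 8.84, the TH10785 libraries 21.4, 26 and 29, and the combination libraries 34.2, 27.3 and 25.6. Every library with TH10785 in it was above every library without it, and the TH10785 and combination libraries overlapped. KISS1 was 1.75 log2 units higher with TH10785 than with DMSO (SE 0.16, 3.38-fold), a contrast that chose the gene and is given as a description. The comparison of the combination with PNKP1i shares no library with it: there KISS1 rose by 1.82 (SE 0.16, 3.53-fold, edgeR quasi-likelihood, Benjamini-Hochberg adjusted p = 1.09e-05), and did so in each of the 20 other settings tried (1.69 to 2.24). Between the combination and TH10785 the difference was 0.19 (95% interval −0.14 to 0.51), and 0.65 once each library's trends with GC content and transcript length were offset, past the test's threshold in that setting. The interaction term of KISS1 was 0.06 (SE 0.23).

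PTPRR, the scarcest of the set per length with DMSO, also stayed high. It lies on the minus strand of chromosome 12 (70638073–70920843). Its DMSO libraries held 11, 15 and 9 reads, or 0.658, 0.916 and 0.482 CPM. Values were 0.789, 1.4 and 1.09 CPM with PNKP1i, 4.23, 3.31 and 1.78 with TH10785, and 3.05, 1.74 and 3.21 with the combination. The DMSO and PNKP1i libraries overlapped, as did the TH10785 and combination libraries, and the first pair lay below the second pair throughout. The TH10785 contrast that chose PTPRR was 2.18 log2 units (SE 0.39, 4.52-fold). When TH10785 was added to PNKP1i, PTPRR rose by 1.28 (SE 0.36, 95% interval 0.53 to 2.04, edgeR quasi-likelihood adjusted p = 0.00783). That call held in 18 of 20 other settings (adjusted p 0.00079 to 0.117 over all 20) and was lost with the GC and length offsets, at 0.69 and an adjusted p of 0.0897. The difference between the combination and TH10785 was −0.21 (95% interval −0.90 to 0.47). The interaction term was −0.89 (SE 0.53), and −1.52 with the offsets, where it was past the threshold. A pseudogene inside the gene, FAHD2P1, had 11 reads in all; its part in these values was not tested.

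PTP4A3 lost its rise. It is on the plus strand of chromosome 8 (141391993–141432454) and was the member with the most reads. DMSO libraries held 22.2, 22.8 and 19.9 CPM, PNKP1i libraries 27, 29.9 and 25.5, TH10785 libraries 69.9, 63.9 and 85.5, and combination libraries 10.9, 27.6 and 27.3. All 3 TH10785 libraries stood above the other 9, while the combination overlapped both DMSO and PNKP1i, with its replicate 1 the lowest of the 12. The rise with TH10785 that chose the gene was 1.76 (SE 0.24, 3.38-fold). The log2 difference of the combination was −1.74 from TH10785 (SE 0.24, 3.33-fold lower) and 0.02 from DMSO (95% interval −0.49 to 0.53). Both comparisons share libraries with the contrast that chose the gene and are descriptions. Against PNKP1i the combination differed by −0.32 (95% interval −0.83 to 0.18, edgeR quasi-likelihood adjusted p = 0.282), a value of either sign that passed in none of 20 other settings. An antisense transcript at this locus, AC100803.1, had 35 reads in all.

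LINC02615 followed the same course with fewer reads (the gene, on the plus strand of chromosome 4 at 128292751–128519394, has the name AC108062.1 in GENCODE 29). It held 2.09, 2.14 and 2.62 CPM with DMSO, 1.97, 1.78 and 1.88 with PNKP1i, 10.2, 9.88 and 5.66 with TH10785, and 0.677, 2.23 and 2.85 with the combination. The TH10785 libraries were the 3 highest, and the DMSO and combination libraries overlapped. LINC02615 was 1.90 log2 units higher with TH10785 than with DMSO (SE 0.35), the contrast that chose it, and that call was lost when any of the DMSO libraries or TH10785 replicate 2 was left out. The combination differed from TH10785 by −2.15 (SE 0.35, 4.44-fold lower), a description, since the TH10785 libraries helped choose the gene. TH10785 added to PNKP1i gave a difference of 0.04 (95% interval −0.75 to 0.83, edgeR quasi-likelihood adjusted p = 0.942), which took either sign over the other settings and passed in none of 20.

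MAB21L4 had the lowest interaction term of the set, and its values in every comparison are a description, since all 4 groups enter that term. The gene is on the minus strand of chromosome 2 (240886048–240896889). The combination libraries held 0, 13 and 6 reads, or 0, 0.63 and 0.271 CPM, and a count of 0 in replicate 1 allows up to 0.145 CPM (3 reads, counting error only). DMSO libraries held 3.17, 3.42 and 3.48 CPM, PNKP1i libraries 2.48, 1.45 and 2.91, and TH10785 libraries 4.17, 6.21 and 7.05. No pair of groups next to each other in order overlapped: the combination was lowest, then PNKP1i, DMSO and TH10785. The difference from DMSO was 0.79 (SE 0.36) with TH10785, −0.55 (SE 0.39) with PNKP1i and −3.46 (SE 0.50) with both. The combination differed from TH10785 by −4.25 log2 units (SE 0.48, 19-fold lower), by −5.32 without combination replicate 2, the library with 13 reads, and by −3.69 without replicate 1, the library with 0. The interaction term was −3.70 (SE 0.63).

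CLIC3 showed the same order with more reads. It lies on the minus strand of chromosome 9 (136994635–136996803). Its combination libraries held 4, 47 and 38 reads, or 0.194, 2.28 and 1.72 CPM, and the highest of these was below every other library of the 12. Levels were 9.93, 11.2 and 10.7 CPM with DMSO, 6.15, 6.3 and 7.65 with PNKP1i, and 9.01, 10.6 and 17.1 with TH10785. DMSO and TH10785 overlapped and PNKP1i lay below both; the PNKP1i difference from DMSO was −0.66 (SE 0.36) and passed the test only when those 2 groups were fitted alone. The combination differed by −3.12 from TH10785 (SE 0.42, 8.71-fold lower), or by −2.61 without combination replicate 1, the library with 4 reads. It differed by −2.92 from DMSO (SE 0.42, 7.56-fold lower), with an interaction term of −2.46 (SE 0.55). As with MAB21L4, that term chose the gene, so the values of CLIC3 are a description.

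SECTM1 differed from MAB21L4 and CLIC3 in having its highest mean with DMSO. On the minus strand of chromosome 17 (82321024–82334074), it gave 3.29, 2.44 and 3.43 CPM with DMSO, 2.99, 2.1 and 3.6 with PNKP1i, and 2.08, 1.4 and 3.83 with TH10785. These 3 groups overlapped one another. The combination libraries held 0, 10 and 12 reads, or 0, 0.485 and 0.543 CPM, all below the other 9. With TH10785 alone the difference from DMSO was −0.33 (SE 0.42), so there was no rise to lose. The combination differed by −3.12 from DMSO (SE 0.53, 8.70-fold lower) and by −2.79 from TH10785 (SE 0.54, 6.92-fold lower), and the interaction term was −2.72 (SE 0.69). That term chose SECTM1 too, so its values are a description. The epithelial marker sum was lowest with the combination too, and the means of 5 of the 10 markers were lower there than with DMSO and those of 5 were higher. KRT5 and KRT14, keratins of the basal epithelial layer, averaged 0.516 and 1.16 CPM against 4.09 and 8.01 with DMSO, while ESRP1, an epithelial splicing regulator, averaged 2.67 against 0.14 and KLF5 41.3 against 34.1. Their part in the low levels of MAB21L4, CLIC3 and SECTM1 was not tested.

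**Figure D2:**
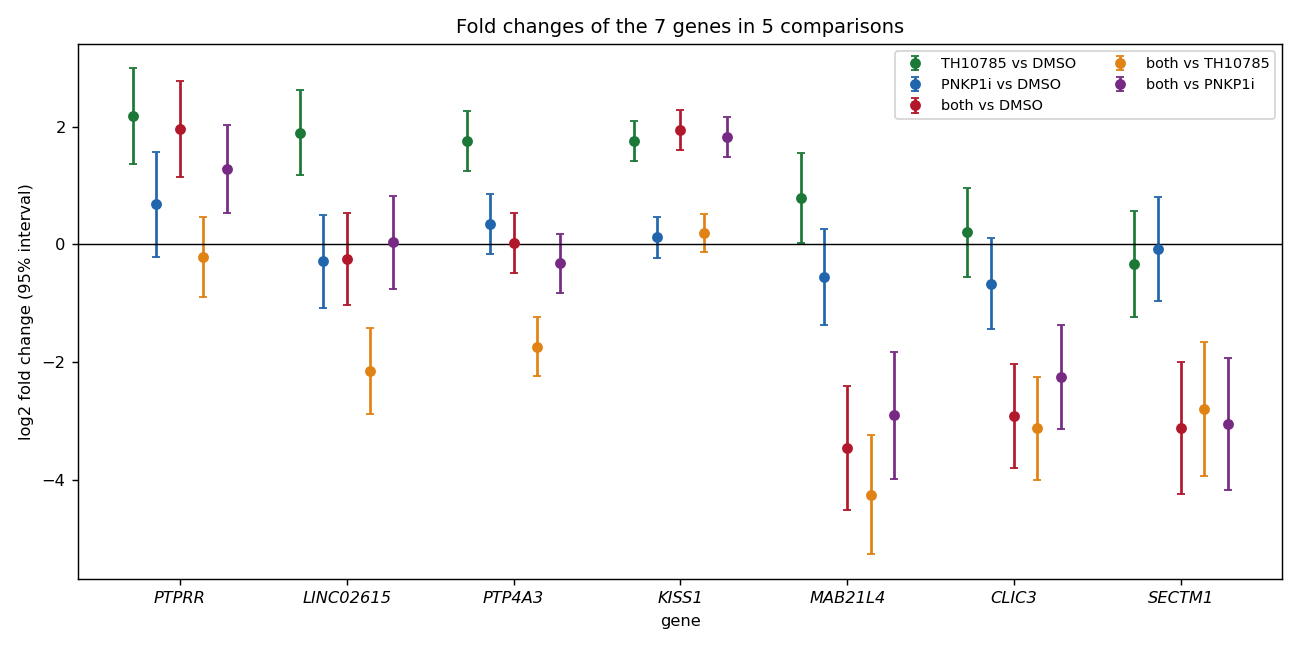
Log2 fold change (vertical axis) with its 95% interval for each of the 7 genes in 5 comparisons, shown by colour; "both" is the combination and the line at 0 is no change. In the comparison of both with TH10785, KISS1 (0.19) and PTPRR (−0.21) have intervals across 0, and the other 5 genes lie between −1.74 and −4.25.

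Counted over the set, 4 of 7 genes were called higher with TH10785 than with DMSO at an adjusted p under 0.05, where 0.515% of all tested genes were; the rule used this contrast, so nothing is read from it. With PNKP1i alone 0 of 7 were called by edgeR, 0 had an unadjusted p under 0.05, and 0.197% of tested genes were called. The combination was called lower than TH10785 in 5 of 7, where 19.7% of tested genes were, and its 3 libraries lay below the 3 TH10785 libraries in the same number, against 24.9%. The choice of all 7 used the TH10785 libraries, so nothing is read from these counts. Against DMSO the combination was called higher for 2 and lower for 3, and against PNKP1i likewise, where 41% and 46% of all genes were called in one direction or the other (24.4% higher in the latter). The 3 called lower are MAB21L4, CLIC3 and SECTM1, chosen by a term that holds these groups, so their calls are a description. The interaction was called for 5, all negative, against 30.6% of tested genes in either direction and 14.1% negative; the term, or libraries in it, chose these genes, so nothing is read from that count either. Comparisons that share libraries are not independent of one another.

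Per kilobase of exon, the order of the members changed between DMSO and the combination. With DMSO, KISS1 had 10.6 CPM per kb, CLIC3 9.03, PTP4A3 7.52, MAB21L4 1.21, SECTM1 1.03, LINC02615 0.696 and PTPRR 0.133. With the combination KISS1 had 41 CPM per kb and PTP4A3 7.62, CLIC3 had moved down to 1.19, and PTPRR, at 0.519, stood above SECTM1 (0.116) and MAB21L4 (0.108).

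Among all 89 genes called higher with TH10785, the 4 members took places 5, 8, 11 and 12 by fold change. Just above PTPRR stood LLGL2 (2.18), between the members ZBED2, LINC01444, ALDOC and ALPL (2.12 to 1.82), and just below KISS1 the cholesterol synthesis gene HMGCS1 (1.68), none of them in the set. In order of the interaction, MAB21L4, SECTM1 and CLIC3 were 5, 27 and 38 from the bottom of 2434 negative calls. Next to SECTM1 were CSRP3 (−2.74) and SKAP1 (−2.70), and next after CLIC3 was MYCN (−2.46). Of the 89 rises, 35 (39.3%) were also called higher when TH10785 was added to PNKP1i, 9 were called lower and 45 were not called. In that comparison 24.4% of all 17290 tested genes were called higher and 3719 genes were called lower. That count of 35 ran from 13 without DMSO replicate 2 to 63 without TH10785 replicate 3, as the number of rises itself moved. Cholesterol synthesis and uptake is a list whose rise was known from earlier results. Of its rises 8 of 20 (40%) were called higher against PNKP1i, and 27 of 69 (39.1%) outside it. That call does not mean that the whole rise was kept. The combination was called lower than TH10785 for 16 of 24 tested genes of the cholesterol list (median −0.996), where 19.7% of all tested genes were. SQLE (−0.55) and MSMO1 (−0.58) were among these 16 and were also called higher against PNKP1i. The 35 genes are 0.828% of the 4226 called higher in the combination against PNKP1i. KISS1 and PTPRR are 2 of those 27. LINC02615 and PTP4A3 are 2 of the 35 rises outside the cholesterol list that were not called in either direction against PNKP1i.

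**Figure D3:**
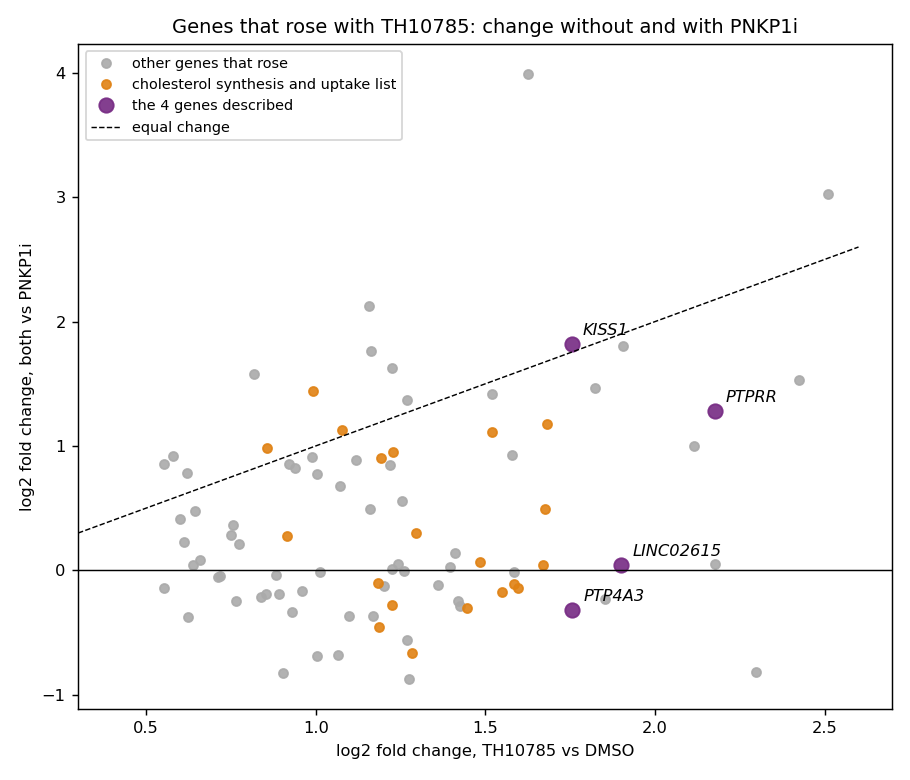
Each point is 1 of the 89 genes called higher with TH10785 than with DMSO (horizontal axis, log2 fold change), against the log2 change when TH10785 was added to PNKP1i (vertical axis); the dashed line marks equal change. KISS1 (1.75 and 1.82) sits on that line, PTPRR (2.18 and 1.28) below it, and LINC02615 (0.04) and PTP4A3 (−0.32) near 0 on the vertical axis.

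Fold changes of the combination moved with the GC content of transcripts across the whole table. Against TH10785 the median was 0.83 for 1584 genes under 40% GC and −0.41 for 575 genes at 65% or more. PTP4A3 (62.7% GC), SECTM1 (62.7%) and MAB21L4 (61.2%) are in a range where the middle 90% of genes ran from −1.34 to 0.57, and all 3 were below it. CLIC3 (68.4%) was below its range too. LINC02615 has 44.6% GC, and genes of 40 to 45% GC had a median of 0.50 and a middle 90% from −0.48 to 1.43, with LINC02615 at −2.15. The TH10785 libraries entered the choice of all these genes, so their places below the ranges are a description. With offsets for GC and length, the differences from TH10785 were −3.87 for MAB21L4, −2.69 for CLIC3, −2.36 for SECTM1, −1.34 for PTP4A3 and −2.44 for LINC02615. KISS1, at 66.7% GC, was above its range in the comparison with PNKP1i, whereas PTPRR, at 42.4%, was inside its own, whose median was 0.58.

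**Figure D4:**
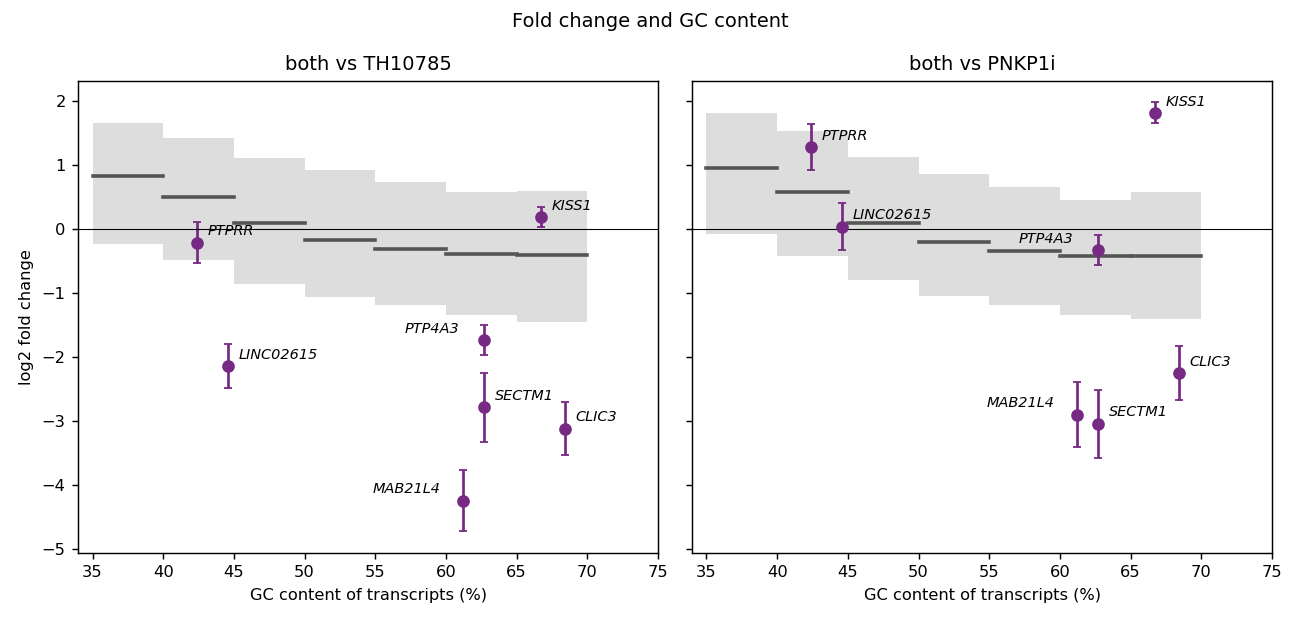
Log2 fold change (vertical axis) of the 7 genes, with SE bars, against the GC content of their transcripts (horizontal axis, %), for the combination against TH10785 (left) and against PNKP1i (right). Dark lines are the median and shading the middle 90% of all tested genes per GC range, the first and last of which also hold genes beyond the drawn edges; 5 genes lie below the shading on the left, and KISS1 lies above it on the right. The TH10785 libraries entered the choice of those 5 genes, so their place on the left is a description.

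Relatives of the 2 phosphatases moved in both directions. The list counts that follow compare with 22.7% of all tested genes called higher and 19.7% called lower in the combination against TH10785, and none is read as particular to its list. No gene of the lists described here, other than the cholesterol list, was called with TH10785 or PNKP1i alone. PTPN7, which like PTPRR docks on MAP kinases, averaged 1.26 ± 0.16 CPM with TH10785 and 3.08 ± 0.55 with the combination (SD, n = 3), and rose by 1.29 log2 units (SE 0.25). The third phosphatase of that kind, PTPN5, was at 0.501 ± 0.2 and 0.535 ± 0.086 CPM. Of 8 docking phosphatases and MAP kinases, 1 rose and 2 fell between TH10785 and the combination, the latter being MAPK3 (−0.86), the kinase ERK1, and MAPK7 (−0.61). Among 14 tested receptor-type phosphatases 2 rose and 2 fell, with PTPRS at −0.64 and PTPRM at 0.49. PTP4A2, the close paralog of PTP4A3, had the opposite sign to it, going from 158 ± 37 CPM with TH10785 to 250 ± 25 with the combination (0.66, SE 0.15). Over the 9 PRL phosphatases and CNNM partners 3 rose and 3 fell, among them the magnesium channel kinase TRPM7 (1.48) and the transporter CNNM3 (−0.51). PTP4A1 was called only against PNKP1i (0.65, SE 0.21). The medians of these 3 lists, −0.05, 0.10 and 0.23, compare with 0.02 over all tested genes.

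Of the kisspeptin list, the receptor gene KISS1R had 2 reads over the 12 libraries and was not tested. None of the 8 tested genes of peptide processing rose with KISS1. FURIN, a protease that cuts prohormones, was −0.43 between the combination and TH10785 and PCSK7, of the same family, −0.33, and these were the 2 called. In the CLIC family, 1 of 4 tested relatives of CLIC3 rose and 1 fell: CLIC4 was at 177 ± 50 CPM with TH10785 and 268 ± 18 with the combination (0.60, SE 0.16), and CLIC5 at 1.31 ± 0.49 and 0.408 ± 0.11 (−1.67, SE 0.44). CLIC1, by far the most abundant relative in CPM, was at −0.40 (SE 0.16) and not called. SECTM1's receptor CD7, a gene of lymphocytes that lies 3422 bp away from it, was at 1.02 ± 0.1 CPM with DMSO, 0.694 ± 0.28 with TH10785 and 0.315 ± 0.073 with the combination, and fell by 1.14 log2 units between the last 2 (SE 0.43). Of the 13 tested genes of the SECTM1 receptor and interferon gamma list, 4 rose and 2 fell: the kinases JAK1 (0.67) and JAK2 (1.3) rose and SOCS1, a feedback inhibitor of that pathway, fell (−1.50). Among 8 tested Mab-21 domain genes, MIEF2, a mitochondrial fission adaptor, fell by 0.81, MB21D2 was −0.41 and ITPRIPL2 0.34. The medians were −0.28 for the kisspeptin list, 0.10 for the CLIC family, −0.18 for the interferon gamma list and −0.04 for the Mab-21 genes.

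Chromosomal neighbours gave mixed values. PTPRB, a receptor phosphatase that begins 633 bp from PTPRR, rose by 1.17 when TH10785 was added to PNKP1i, near the 1.28 of PTPRR, but was at 0.05 with TH10785 alone, where PTPRR was at 2.18. GOLT1A, 1674 bp from KISS1, was 1.93 higher in the combination than with TH10785 (SE 0.48). In the same comparison GPR20, 24726 bp from PTP4A3, fell by 1.5 (SE 0.37), and ABCA2, 10424 bp from CLIC3, fell by 0.50 (SE 0.13). PGRMC2 next to LINC02615 and KIF1A and SNED1 on either side of MAB21L4 were not called.

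Over the 12 libraries, which fall into 4 groups, the members' log2 CPM formed 3 sets. Pearson's r was 0.98 between MAB21L4 and CLIC3 and 0.95 between CLIC3 and SECTM1, 0.91 between LINC02615 and PTP4A3, and 0.84 between PTPRR and KISS1, whereas that of KISS1 with PTP4A3 was 0.31. The sets were not cleanly apart. LINC02615 and PTP4A3 had an r of 0.42 to 0.68 with MAB21L4, CLIC3 and SECTM1. The tested genes most like each member were CYBRD1 for PTPRR (0.94), TSPAN5 for KISS1 (0.96), ZXDA for LINC02615 (0.95), NPPB for MAB21L4 (0.99), LZTS1 for CLIC3 (0.99) and BAIAP2-DT for SECTM1 (0.99). For PTP4A3 they were FADS1 (0.96), a fatty acid desaturase, and MVK (0.94) and FDPS (0.94), of the mevalonate pathway. FADS1 was also among the 3 genes nearest to LINC02615 (0.94). Between TH10785 and the combination MVK was at −1.36 and FDPS at −1.59, beside −1.74 for PTP4A3. These correlations carry the group means and the shared library composition, and are descriptions only.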

How the data were processed

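The authors deposited raw read counts for 58735 genes in 12 libraries, which is the unit tested here; a second table of theirs with normalized values was not used. Per the labels' protocols, TRIzol RNA was made into NEBNext Ultra libraries and sequenced as paired reads. Alignment and counting tools, per the submitters' processing notes, included HTSeq 0.6.1 and HISAT2 2.0.5, beside DESeq2 1.30.1, on GRCh38 (hg38); the annotation and strand setting are not given in the sources used here, so antisense reads may be mixed in. All 58735 identifiers are in GENCODE 29, which gave positions, lengths and GC content (17282 of 17290 tested genes).

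Counts were filtered with filterByExpr (minimum count 10, total 15), scaled by TMM and fitted with robust quasi-likelihood in edgeR 4.0.16 (R 4.3.3), with a mean per group over all 12 libraries; two-sided p-values were adjusted by Benjamini-Hochberg over 17290 genes, and calls are at 0.05. Intervals are 95% intervals of that fit. No replicate pair held identical counts (chi-square per gene 2.97 to 35.3). Counts simulated with known changes were used to test the fit.

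The members and gene lists were chosen with earlier results of these data known. Named genes are the 7 members, up to 3 tested genes with the smallest p per list in the comparisons of the combination with TH10785 and PNKP1i, close paralogs, the nearest tested neighbours, the 3 genes with the highest r (log2 CPM, prior count 2, mean at least 1) and the genes next to the members in rank; markers named beside a result were chosen after their values were seen. Alternatives were RLE scaling, DESeq2 1.42.0, 2 other filters, only the groups compared, spline offsets for GC and length, the replicate number as a block (with and without offsets), and each library left out.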

Additional observations from a re-analysis of the deposited data

Results flagged for a closer look

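The effect of TH10785 without PNKP1i differed from its effect with PNKP1i, by the interaction term of the edgeR fit, in 5 of the 7 members. The same term was called for 12 of the genes named with their lists, the cholesterol list left out. Over all tested genes 30.6% were called. List genes were named as close paralogs or for small p-values in comparisons that share libraries with this term, so nothing is read from these counts. The members called were MAB21L4 (−3.70 log2 units, 13-fold), SECTM1 (−2.72), CLIC3 (−2.46), PTP4A3 (−2.08) and LINC02615 (−1.86). For MAB21L4, SECTM1 and CLIC3 the term is what chose them, and for the other 2 it holds the TH10785 and DMSO libraries that did. Among the genes named with their lists, the term was negative for CLIC5 (−1.95), SOCS1 (−1.31), MAPK3 (−1.08), MIEF2 (−0.84), CLIC1 (−0.75) and PTPRS (−0.51). It was positive for TRPM7 (1.60), JAK2 (1.53), JAK1 (0.98), PTP4A2 (0.91), PTPRM (0.63) and CLIC4 (0.62). List genes not named above were called as well, such as CNNM4 (−0.52), so this listing is not complete. The cholesterol list is not in this tally, and 13 of its 24 tested genes were called negative and 1 positive.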

How the results depend on the processing

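Called member differences between the combination and each other group kept their direction and call in the 20 alternatives, with 1 exception; relatives and neighbours were not refitted. For PTPRR against PNKP1i the call was lost with GC and length offsets (0.69), with or without the replicate block. KISS1 against TH10785 was called at 0.65 with the offsets and 0.64 with the block added. Several uncalled differences near 0 changed sign, among them the differences from DMSO of LINC02615 (−0.65 to 0.16) and PTP4A3 (−0.17 to 0.39) with the combination, PTPRR between the combination and TH10785 (−0.72 to 0.06) and CLIC3 with TH10785 (−0.10 to 0.41). Of those from PNKP1i, LINC02615 was −0.30 with the offsets, −0.33 with the block added, and from −0.36 (without combination replicate 3) to 0.44 (without combination replicate 1) with a library left out; PTP4A3 was 0.12 with the offsets, 0.093 with the block added and −0.52 (without combination replicate 2) to 0.0047 (without combination replicate 1) with a library left out. With DMSO replicate 3 left out, PTPRR lost its call against DMSO for TH10785 (1.97). Combination replicate 1 was the lowest of the 12 libraries for LINC02615, PTP4A3, MAB21L4, CLIC3 and SECTM1, and the highest for KISS1. Without it the combination differed from TH10785 by −1.75 for LINC02615, −1.41 for PTP4A3, −2.61 for CLIC3 and −2.225 for SECTM1, all still called.

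Counts over all genes moved more. With TH10785, 97 genes were called against DMSO, and 315 by DESeq2, 358 with the offsets, 513 with no filter, 44 (without DMSO replicate 2) to 178 (without combination replicate 1) with a library left out. With PNKP1i, 34 were called, and 116 by DESeq2, 104 with the offsets, 189 with no filter, 1150 with only those groups fitted, 7 (without PNKP1i replicate 1) to 301 (without TH10785 replicate 3) with a library left out. The interaction gave 5289, and 3112 with the offsets, 3492 (without PNKP1i replicate 3) to 6140 (without TH10785 replicate 1) with a library left out. Of the 89 TH10785 rises, 35 were also higher against PNKP1i, and 84 of the larger list by DESeq2, 96 with the offsets, 106 with no filter, 13 (without DMSO replicate 2) to 63 (without TH10785 replicate 3) with a library left out.

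Same-numbered replicates did not deviate together (r −0.255 to 0.125, over 0.1 in 1 of 18 pairs). No label says whether the numbers pair the libraries, and these r values, with 3 libraries per group, cannot decide it. A replicate block gave 62 calls for TH10785, 15 for PNKP1i and 22 TH10785 rises also called higher against PNKP1i. With the offsets too it gave 208, 62 and 69, and 4907 for the combination against PNKP1i and 2385 for the interaction. The cause of these shifts was not tested. Depth limits PTPRR, MAB21L4 and SECTM1, which had 0 to 127 reads per library.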
